A study of Bos taurus with 12 samples.

Results

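Leukocyte miRNAs, the small RNAs that white blood cells make in large amounts, were followed in extracellular vesicles (EVs) of bovine plasma. EVs are membrane-bound particles that cells release into the blood. The members were chosen by name in the deposited table of known bovine miRNAs and were bta-miR-150, bta-miR-342, bta-miR-223, bta-miR-142-5p, bta-miR-155, bta-miR-146a and bta-miR-146b, written without the species prefix below. These were 7 of the 783 miRNAs listed, and 336 of the 783 had a read in at least 1 library.

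The plasma came from 6 crossbred beef heifers (Charolais-cross and Limousin-cross), and small RNA was sequenced from the EVs of each heifer on Day 7 of 2 consecutive estrous cycles, giving 12 libraries. All heifers had been synchronized with a progesterone device, GnRH and prostaglandin F2α before the unstimulated (U) cycle. FSH was started during that cycle, after the U sample had been taken, and was given with prostaglandin F2α and followed by artificial insemination, which began the superstimulated (S) cycle. High (H) and low (L) responders were picked from the upper and lower quartile of a larger herd by their number of corpora lutea after FSH, so that UL, UH, SL and SH held 3 libraries each. H and L were assigned from the response in the S cycle, also for the U libraries. Every S library was taken after both FSH and insemination, and the effects of FSH, of insemination and of the order of the cycles cannot be told apart.

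Leukocyte miRNAs reach plasma EVs from circulating and tissue white cells. MiR-150 is high in mature B and T lymphocytes and limits MYB, a transcription factor of immature blood cells, and miR-342 is likewise abundant in lymphocytes. MiR-223 is the main miRNA of neutrophils and monocytes, where it restrains granulocyte activation. The 2 arms of the miR-142 hairpin are made in nearly all blood cell lineages and few others. MiR-155 rises when lymphocytes and macrophages are activated, while miR-146a and miR-146b are induced by NF-kB and dampen Toll-like receptor signalling through IRAK1 and TRAF6. A bulk library cannot tell fewer vesicles of a cell type from less miRNA in each vesicle.

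The mature sequences are printed since each value below counts reads that matched 1 of them perfectly. They were taken from the deposited table and run 5′ to 3′ with T in place of U, and the capitals mark the seed, bases 2 to 8 from the 5′ end, which pairs with target mRNAs.
miR-150: tCTCCCAAcccttgtaccagtgt
miR-342: tCTCACACagaaatcgcacccatct
miR-223: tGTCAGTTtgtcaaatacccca
miR-142-5p: cATAAAGTagaaagcactac
miR-155: tTAATGCTaatcgtgataggggt
miR-146a: tGAGAACTgaattccataggttgt
miR-146b: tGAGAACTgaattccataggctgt

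MiR-146a and miR-146b shared their seed and were identical at 23 of 24 bases. Their only substitution was T21C, counted from 1 at the 5′ end of miR-146a. A read with an error at this base would match the other miRNA, so the split of reads between miR-146a and miR-146b is uncertain. The seeds of the other 5 members were carried by no other miRNA of the table. In the RefSeq annotation of ARS-UCD2.0, an assembly other than the UMD3.1 used for mapping, MIR342 lay within the span of EVL, a regulator of the actin cytoskeleton. MIR223 overlapped the spans of VSIG4 and of a long noncoding RNA gene, and MIR142 those of TSPOAP1 and of another long noncoding RNA gene. MIR150, MIR155, MIR146A and MIR146B overlapped no other listed gene.

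The libraries held 21466 (SH2) to 77433 (SH3) reads of known miRNAs, and the group medians lay between 32160 reads for SL and 52304 reads for UH. Reads were scaled by TMM, a method that sets the bulk of the miRNAs equal between libraries, to the mean depth, and are called normalized reads below. The limit that a count of 0 allows, 3 reads, was 1.81 normalized reads in SH3 and 6.03 in SH2. Such limits cover counting error only. Sums of marker miRNAs of other cells differed between libraries. In SH the red cell markers ranged from 1758 to 8362 normalized reads, against 982 to 2756 over the 9 other libraries. The sum for platelets and endothelium ranged from 1691 to 7667 in SH and from 3524 to 11884 in the others. Of the 3 markers of each of these lists, miR-144 and miR-197 were at 0 in 3 libraries each and the other 4 had reads in each library. UL1 stood apart in its muscle markers, with 1706 normalized reads against 37.7 to 163 elsewhere, and SH1 and SH3 in their mesenchymal markers, with 1175 and 730 against 92.4 to 539.

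The 7 members together took 4.76% of the known miRNA reads in UH2, the lowest share, and 11.1% in SL3, the highest. Nearly all of these reads came from 5 members. MiR-150 was between the 5th and the 15th most abundant known miRNA of a library, miR-342 between the 7th and the 13th, and miR-223 between the 9th and the 22nd. MiR-142-5p held ranks 21 to 42 and miR-155 ranks 28 to 44. MiR-146a, at ranks 70 to 156, and miR-146b, at ranks 86 to 206, were far rarer. A read stands for a whole mature miRNA, so reads were compared between members without a correction for length. Nor was there a correction for how efficiently each miRNA was ligated to adapters, so ranks and ratios between miRNAs are those of reads.

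The order of the members by mean level held in full in 3 of 12 libraries, SL1, SL3 and SH2, since neighbours in it often changed places. MiR-150 had more reads than miR-342 in 9 of 12 libraries, the exceptions being UH3, SH1 and SH3. MiR-342 was above miR-223 in 10 of 12, all but UH3 and SH3. The ratio of miR-150 to miR-342 was 0.871 to 1.89 and that of miR-342 to miR-223 was 0.902 to 2.32. For miR-150 to miR-223 it was 0.838 to 3.45, so these 3 were close in level in some libraries only. MiR-223 was above miR-142-5p in 12 of 12 libraries, by 2.31 to 4.30 times. MiR-142-5p exceeded miR-155 in 9 of 12, which left these neighbours overlapping, and miR-155 exceeded miR-146a in 12 of 12, by at least 6.41 times. MiR-146a and miR-146b had no fixed order, with miR-146a higher in 8 of 12.

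**Figure D1:**
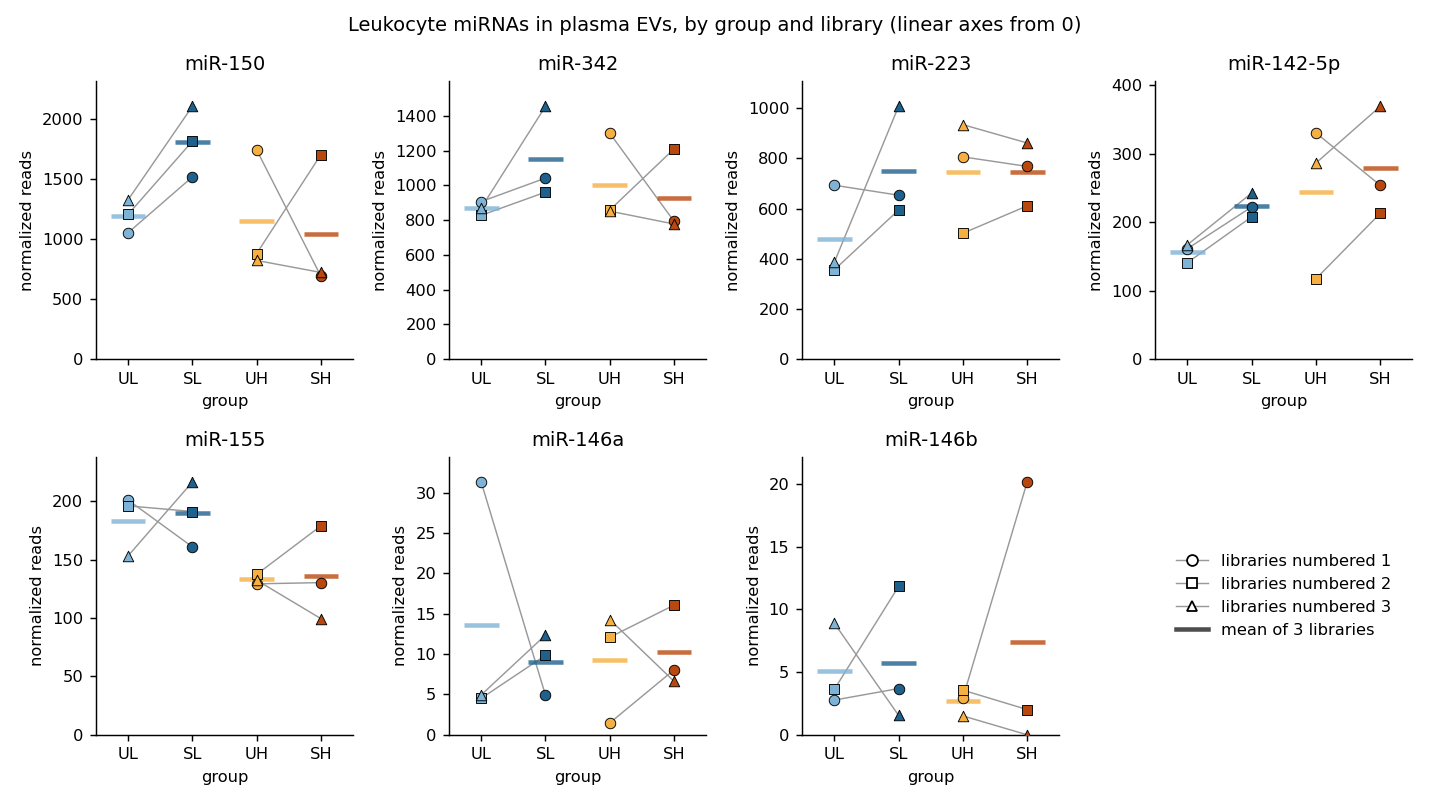
Normalized reads of the 7 leukocyte miRNAs (vertical axes, linear and starting at 0) in UL, SL, UH and SH, with 1 point per library, a thick bar at the mean of 3 libraries and a thin line from the U to the S library of the same number. The lines of miR-150, miR-342 and miR-142-5p slope upward in 3 of 3 L heifers, as any pairing of their UL and SL libraries would give. In H heifers the lines of these miRNAs point in different directions. MiR-146a and miR-146b stay under 32 normalized reads.

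MiR-150, the most abundant member, was tightly grouped in L heifers and spread in H heifers. Its level was 1054, 1206 and 1328 normalized reads in the 3 UL libraries and 1519, 1817 and 2108 in the 3 SL libraries. In UH it was 1744, 880.1 and 822.6, and in SH 690.2, 1706 and 722.3. UL and SL did not overlap, whereas each of UH and SH held 1 library (UH1 and SH2) that was about as high as those of SL. Group means were 1196 ± 137 and 1815 ± 294 for UL and SL and 1149 ± 516 and 1039 ± 577 for UH and SH (SD, n = 3).

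MiR-342, the second lymphocyte miRNA, followed the same libraries over a narrower range. It had 906.1, 827.1 and 869.5 normalized reads in UL and 1041, 960.5 and 1454 in SL. In UH, 1299, 857.3 and 851.1 normalized reads were found, and in SH 792.2, 1210 and 777.1. The highest UH and SH libraries were again UH1 and SH2, and SL was entirely above UL. Over all libraries, the highest level was 1.87 times the lowest, against 3.05 times for miR-150.

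MiR-223, the myeloid member, was highest in other libraries. UL had 693.1, 355.8 and 385.3 normalized reads and SL 653.3, 594.0 and 1008. UH had 806.1, 501.6 and 934.6, and SH 768.1, 610.8 and 861.5. The libraries UL2 and UL3 were below each of the 10 others, while UL1 overlapped SL. The mean of UL was 478 ± 187, below the means of UH (747 ± 222), SL (752 ± 224) and SH (747 ± 127; SD, n = 3).

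MiR-142-5p, a general blood cell miRNA, had 161.3, 140.9 and 167.0 normalized reads in UL and 222.3, 207.9 and 242.6 in SL. UH had 330.4, 117.4 and 286.5 normalized reads and SH 253.8, 213.0 and 369.3. The H libraries thus included the lowest value, in UH2, as well as the highest, in SH3. The other arm of the hairpin, miR-142-3p, was less abundant, with group means between 69.3 (UL) and 88.7 (SH). The 5p arm had 2.01 to 3.75 times the reads of the 3p arm in 11 libraries and 7.48 times in SH3. In SH3 the 3p arm had 82 reads and the 5p arm 613. The red cell marker sum, which is mainly miR-486, was highest in the same library. The log2 ratio of miR-451 to miR-23a was not, at -1.11 in SH3 against -0.65 in SH1. The part of red cells in the arm ratio was not tested.

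MiR-155, the activation-linked member, had one of the smallest spreads. Its level was 200.9, 195.9 and 153.1 normalized reads in UL and 160.9, 191.1 and 216.4 in SL. In UH it was 129.2, 137.3 and 132.3, and in SH 130.2, 178.8 and 99.4. All UH libraries were below all UL libraries, and in SH only SH2 reached the range of the L heifers.

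The miR-146 pair was near the limit of detection. MiR-146a had 31.3 normalized reads (34 reads) in UL1 and 1.47 to 16.1 in the other libraries, the lowest resting on 1 read. MiR-146b ranged from 0 reads in SH3, where the limit is 1.81 normalized reads, to 20.1 normalized reads (15 reads) in SH1. Neither member had a group that stood apart, and their groups overlapped in every comparison.

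Replicate spread was compared with counting error on the log2 scale. The SD within groups was 0.50 for miR-150, 0.30 for miR-342, 0.43 for miR-223, 0.46 for miR-142-5p and 0.26 for miR-155. Counting alone would give 0.04 for miR-150 and 0.12 for miR-155. Among the 60 miRNAs that averaged 50 or more reads, the median SD was 0.46, and miR-155 had the 6th and miR-342 the 12th lowest SD. MiR-146a and miR-146b had SDs of 1.11 and 1.33, of which counting would give 0.64 and 0.97.

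The first question of the design is whether H and L heifers differed before FSH. In UH vs. UL, 0 of 7 members were called. A call needed a log2 fold change of 1 or more in either direction and an unadjusted limma P of 0.05 or less. Of all 227 miRNAs tested, 2.64% were called. Without the fold threshold, the unadjusted P was 0.05 or less for 0 members and again for 2.64% of all miRNAs. This count depended on the fit: miR-223 had such a P in 3 of 9 other settings (no filter, mapped reads as library size, and a block on the library number, which joins different heifers here) and in 2 of 6 fits that left out 1 library, those without UL1 (log2 fold change 0.96) and without UH2 (0.93). MiR-142-5p had such a P without UH2, at a log2 fold change of 0.98, and ranged down to 0.23 when other libraries were left out. Over all alternatives the lowest adjusted p of a member was 0.469 (limma with Benjamini-Hochberg adjustment over all miRNAs tested), for miR-142-5p without UH2. In the main fit, that of the calls above, every adjusted p of the members was at least 0.929. The largest difference was that of miR-223, at a log2 fold change of 0.66 (SE 0.32, 95% interval -0.01 to 1.34, adjusted p = 0.929). MiR-142-5p had 0.51 (SE 0.35), while miR-150 had -0.14 (SE 0.31) and miR-342 0.18 (SE 0.28).

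MiR-155 was the 1 member whose UH and UL libraries did not overlap, which was seen for 7.49% of all miRNAs. It was lower in UH in 3 of 3 libraries, at a log2 fold change of -0.45 (SE 0.27, 95% interval -1.02 to 0.12, adjusted p = 0.929). The sums of platelet and endothelial markers overlapped, at 4062 to 7009 in UL and 4656 to 11884 in UH. The median log2 fold change of the members was -0.14, against 0.04 over all miRNAs.

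After FSH, the L and H heifers were compared in SH vs. SL, where 0 of 7 members were called against 5.47% of 201 miRNAs, and by P alone the counts were the same. With the library number as a block, which again joins different heifers, 1 member, miR-150, had an unadjusted P of 0.05 or less, as it did with all 4 groups in the fit and with known miRNA reads as library size, which makes 3 of 9 other settings. The median of the members was -0.32, against -0.08 over all miRNAs. MiR-150 was lowest relative to SL, at a log2 fold change of -0.92 (SE 0.44, 95% interval -1.89 to 0.04, adjusted p = 0.666). Its call depended on 1 library: without SH2, the log2 fold change was -1.35 (SE 0.33, adjusted p = 0.160) and miR-150 was called. It was also called at -1.07 with the known miRNA reads as library size. Without SH1 or SH3, the log2 fold change was -0.70 or -0.73. Over all 15 alternatives the adjusted p ranged from 0.160 to 0.847.

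SH1 and SH3, the 2 SH libraries with little miR-150, also had the lowest sums of platelet and endothelial markers, 2245 and 1691 normalized reads, while SH2 had 7667 and SL 3524 to 6427. Their part in the difference was not tested. MiR-342 had a log2 fold change of -0.32 (SE 0.37) and miR-155 of -0.50 (SE 0.35), and both overlapped between the groups. MiR-223 had 0.02 (SE 0.36), with a 95% interval of -0.78 to 0.81. In all, 0 members had groups without overlap, against 8.96% of the miRNAs tested.

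The change between cycles was examined next, separately in each response group. Comparisons with UL, UH, SL or SH in common share those libraries and are not independent. In SL vs. UL, 0 of 7 members were called against 2.34% of 214 miRNAs, or 5 miRNAs, which fell to 3 with the heifer as a block. Still, 3 of 7 members had an unadjusted P of at most 0.05 without reaching the fold threshold, all of them higher in SL. Of all miRNAs, 4.21% had such a P in either direction, and 3.27% a higher level in SL with such a P. MiR-150 had a log2 fold change of 0.59 (SE 0.22, 95% interval 0.11 to 1.08), miR-142-5p of 0.52 (SE 0.20, 95% interval 0.07 to 0.97) and miR-223 of 0.68 (SE 0.30, 95% interval 0.02 to 1.34). After adjustment over all miRNAs tested, p was 0.702 for each of these, so that no change passed the correction.

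These unadjusted results were sensitive to the fit. For miR-150, P stayed at or under 0.05 in 7 of 9 other settings, including the heifer block, and in 4 of 6 fits that left out 1 library, the exceptions being those without UL1 and without SL3. For miR-142-5p this held in 5 of 9 settings and 4 of 6 fits, without UL2 and without SL3 being the exceptions. For miR-223 it held in 2 of 9 settings and 2 of 6 fits, those without UL1 (log2 fold change 0.98) and without SL2 (0.83). With all 4 groups in the fit, the unadjusted limma P was 0.141 for miR-150, 0.168 for miR-142-5p and 0.068 for miR-223. In limma without a trend it was 0.091, 0.112 and 0.139, so each of the 3 members exceeded 0.05 in both settings. MiR-223 also did so under the heifer block, at 0.052. The direction was upward in all of these settings for the 3 members. Only other size factors, the pseudocount and leaving out a library could have changed it, since the remaining settings leave the log2 fold change as it was.

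Separation between SL and UL was seen for 3 of 7 members, miR-150, miR-342 and miR-142-5p, against 7.94% of all miRNAs, and in each of these all SL libraries were above all UL libraries. MiR-342 had a log2 fold change of 0.39 (SE 0.22, adjusted p = 0.702). MiR-155, miR-146a and miR-146b had values of 0.05, -0.10 and -0.06, with intervals that reached from -1.79 to 1.68 for miR-146b. The median of the members was 0.39, against -0.07 over all miRNAs. The red cell markers overlapped, at 1189 to 2622 normalized reads in UL and 982 to 2261 in SL, as did those of platelets and endothelium, at 4062 to 7009 and 3524 to 6427.

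Followed by heifer, with libraries of the same number taken as the same animal, miR-150 was higher in the S cycle by log2 0.53, 0.59 and 0.67 in L1, L2 and L3. MiR-142-5p was higher by 0.46, 0.56 and 0.54 in the same heifers, and miR-342 by 0.20, 0.22 and 0.74. The 3 L heifers had differences of the same sign in these miRNAs. This repeats the separation of SL from UL, since any pairing of these libraries would give the same signs. With the pairing used, the differences of miR-150 varied by an SD of 0.07. The differences of miR-223 were less even, at -0.09, 0.74 and 1.38, and those of miR-155 were -0.32, -0.04 and 0.50.

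In H heifers, SH vs. UH had 0 of 7 members called against 5.66% of 212 miRNAs, with the same counts by P alone, and 0 members without overlap against 7.55%. The difference between cycles of miR-150 was log2 -1.34 in H1, 0.95 in H2 and -0.19 in H3, and its log2 fold change was -0.19 (SE 0.49, adjusted p = 0.922). MiR-342 showed the same order, with -0.71, 0.50 and -0.13. The H heifers therefore differed in direction for both lymphocyte miRNAs, and the interval for miR-150, -1.21 to 0.83, contains the value found in L heifers. For miR-142-5p the differences were -0.38, 0.85 and 0.37, and for miR-223 -0.07, 0.28 and -0.12. The median of the members was 0.03, against -0.14 over all miRNAs.

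Over all 6 heifers, in a fit without a heifer term, S vs. U gave 0 of 7 members called against 4.62% of 238 miRNAs. An unadjusted P of 0.05 or less was found for 0 of 7, against 7.14%. All 7 log2 fold changes were above 0, with a median of 0.16 against -0.13 over all miRNAs, although miR-155 and miR-146b fell below 0 under other scalings. MiR-142-5p had the largest, 0.40 (SE 0.26, adjusted p = 0.716), and was higher in the S cycle in 5 of 6 heifers. MiR-150 and miR-342 were higher in 4 of 6, and miR-223 in 3 of 6.

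Whether the change between cycles differed between H and L was tested as an interaction. Here too 0 of 7 members were called, against 5.04% of 238 miRNAs, and by P alone the counts were the same. MiR-150 had -0.78 (SE 0.55, 95% interval -1.93 to 0.36, adjusted p = 0.847). This value depended on single libraries. Without SH2 it was -1.21 (adjusted p = 0.421) and miR-150 was called. It was -0.44 without UH1, -0.56 without SH1 and -0.59 without SH3, and over all 20 alternatives the adjusted p ranged from 0.421 to 0.9997. MiR-223 had -0.65 (SE 0.50), miR-342 -0.50 (SE 0.45) and miR-142-5p -0.24 (SE 0.51). The differences between cycles in L heifers are thus not shown to depart from those in H heifers for any member.

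**Figure D2:**
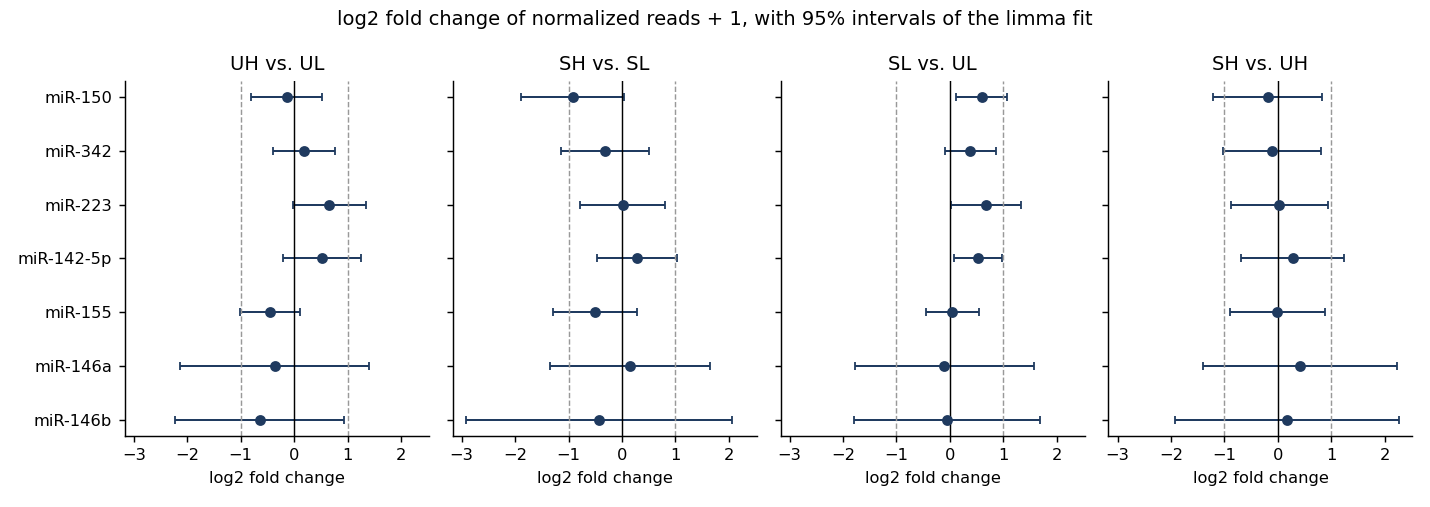
Log2 fold changes (horizontal axes) of the 7 leukocyte miRNAs in the 4 pairwise comparisons, with points at the limma estimate and bars for the 95% interval, and dashed lines at the fold threshold of the calls. The intervals of miR-150, miR-142-5p and miR-223 in SL vs. UL are the ones that exclude 0, and miR-146a and miR-146b have the widest intervals.

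The mean of both cycles was also taken for each heifer, giving 3 H and 3 L values. MiR-150 was lower in all H heifers (1097, 1225 and 770.8 normalized reads as geometric means) than in all L heifers (1265, 1480 and 1673). MiR-155 likewise was at 129.7, 156.7 and 114.7 in H and at 179.8, 193.5 and 182.0 in L. For both, H and L did not overlap, which was also true of 9.24% of 238 miRNAs. The highest H value and the lowest L value of miR-150 were close to each other, and an exact permutation test of 3 against 3 heifers cannot give a p under 0.1. The other 5 members overlapped.

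A lymphoid to myeloid ratio was formed as the reads of miR-150 and miR-342 over those of miR-223 in the same library, which needs no scaling between libraries. It was 2.83, 5.72 and 5.70 in UL and 3.92, 4.67 and 3.54 in SL. In UH it was 3.78, 3.46 and 1.79, and in SH 1.93, 4.77 and 1.74. The sum of miR-150 and miR-342 was above miR-223 alone in each library, with a median ratio of 3.66. Taken singly, miR-150 and miR-342 were both below miR-223 in UH3 (ratios 0.880 and 0.911) and SH3 (0.838 and 0.902). In SH1 only miR-150 was below it (0.899). UH3, SH3 and SH1 had ratios under 2, while all L libraries were above 2.8.

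The groups of both cycles overlapped. The mean was 4.75 ± 1.66 in UL and 3.01 ± 1.07 in UH (SD, n = 3). The tests used the means of the log2 ratios, 2.18 in UL and 1.52 in UH, a difference of -0.66 (exact permutation test, two-sided, p = 0.3). The mean ratio was 4.04 ± 0.58 in SL and 2.81 ± 1.70 in SH. Its log2 means were 2.01 and 1.33, a difference of -0.67 (exact permutation test, two-sided, p = 0.4). On the log2 scale, the difference between H and L had the same sign and a similar size in both cycles. It came from the same heifers, however, and the smallest p that 3 against 3 libraries allow is 0.1. Without SH2 the difference of SH vs. SL was -1.13.

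Between cycles the ratio differed less. The log2 difference was -0.17 in SL vs. UL (p = 0.8) and -0.18 in SH vs. UH (p = 0.9, both exact permutation tests). Over 6 heifers it was -0.18, and the exact sign-flip test over the pairs gave p = 0.469, the smallest possible being 0.03125. The ratio was higher in the S cycle in 2 heifers, L1 and H2 (0.47 and 0.46 on the log2 scale), and lower in 4, by as much as 0.97 in H1. The change in H heifers minus that in L heifers was -0.01 (exact permutation of the heifers, p = 0.9). In L2 and L3 miR-223 was higher in the S cycle by more than miR-150, and the ratio was lower.

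**Figure D3:**
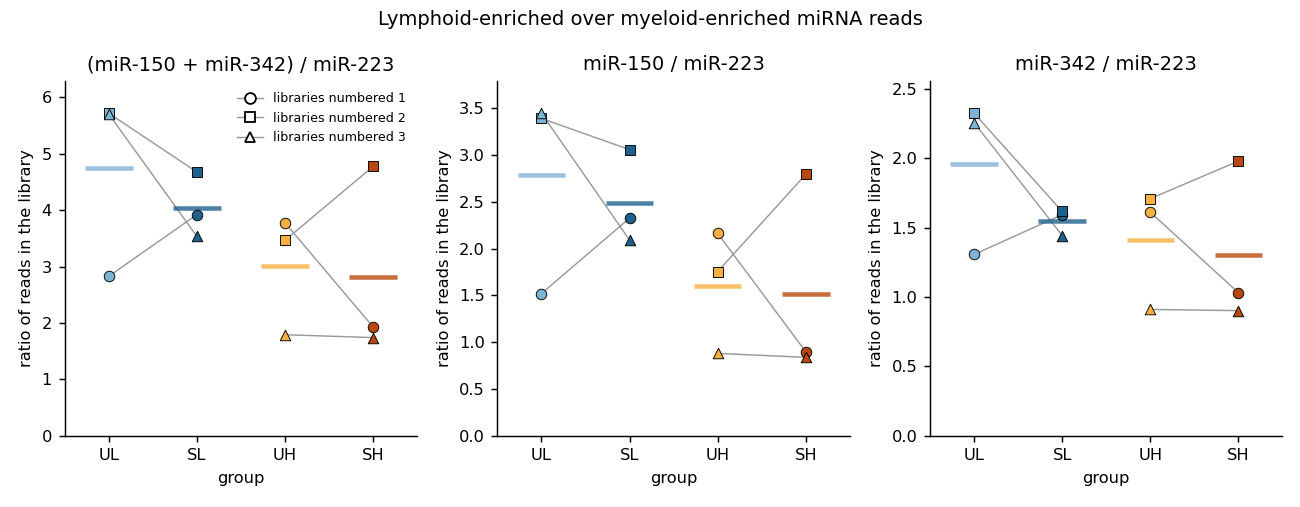
Ratios of lymphocyte to myeloid miRNA reads within each library (vertical axes, linear and starting at 0) for both lymphocyte miRNAs together and for each alone, by group, with points for libraries, bars for means and lines between the libraries of the same number. The combined ratio lies between 1.74 and 5.72, the 4 groups overlap, and the heifers do not move in a common direction.

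Across the 12 libraries, the members formed 2 pairs that varied together. The miRNA most like miR-150 was miR-342, at a Pearson r of 0.84 on log2(normalized reads + 1) among the 59 others that averaged 50 or more reads. Spearman's rho was 0.90, r was 0.80 without the 2 libraries farthest from the median of miR-150 (SH1 and SH3), and 0.88 after group means were taken out. Next in likeness to miR-150 were miR-155 (r = 0.66, or 0.44 without SH1 and SH3) and miR-30d (r = 0.55). For miR-342, miR-26a (r = 0.52) and miR-10a (r = 0.47) followed miR-150.

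MiR-223 was most like miR-425-5p (r = 0.85), followed by miR-142-5p and miR-186 (both r = 0.77). Between miR-223 and miR-142-5p, rho was 0.81, and r was 0.75 without UL2 and UL3 and 0.67 within groups. The other arm, miR-142-3p, varied less closely with both, at r = 0.43 with miR-142-5p and r = 0.39 with miR-223. Between the pairs, r was -0.06 for miR-150 and miR-223 and -0.04 for miR-150 and miR-142-5p, or 0.20 and 0.43 without SH1 and SH3. For miR-342, r was 0.35 with miR-223 and 0.22 with miR-142-5p, or -0.06 and -0.11 without SL3 and UH1, so the coefficients between the pairs depended on a few libraries. MiR-155 was opposite to miR-142-5p (r = -0.52), and the miRNAs most like it after miR-150 were miR-3432 (r = 0.63) and miR-1468 (r = 0.47). The libraries come in pairs from 6 heifers and share the scaling by TMM, so these coefficients describe the libraries and were not tested.

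**Figure D4:**
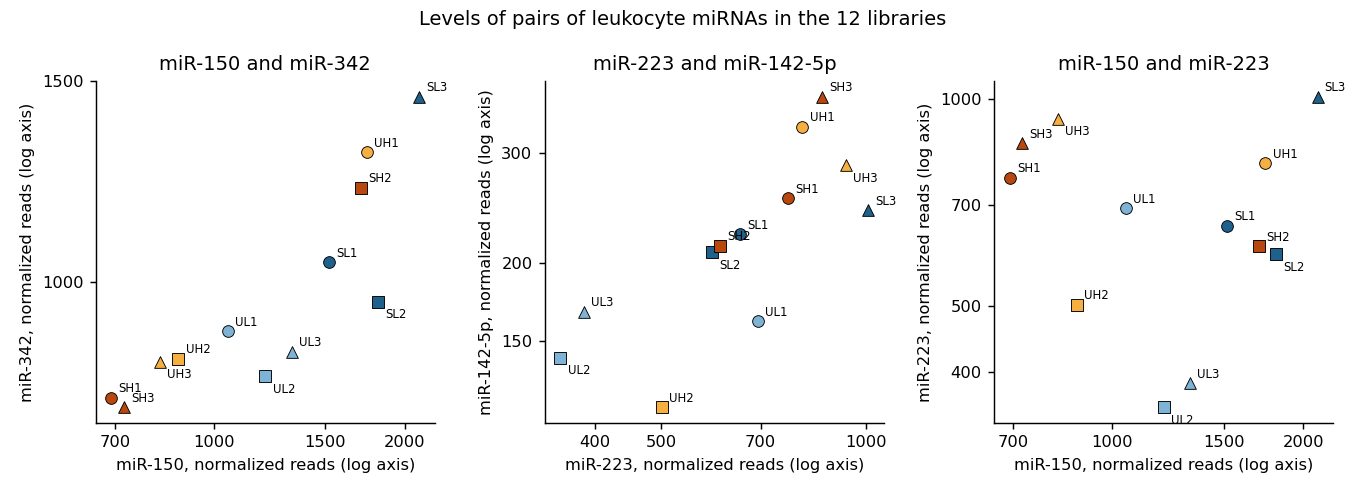
Normalized reads of miR-150 against miR-342, miR-223 against miR-142-5p and miR-150 against miR-223 in the 12 libraries (all axes logarithmic, colours for groups, symbols for library numbers). The first and the middle pair rise together (r = 0.84 and r = 0.77), and r is -0.06 for the last.

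A further list of 17 miRNAs known from leukocytes, among them miR-21-5p, miR-29a, miR-125a, miR-191, miR-221 and the miR-181 family, was examined in the same fits, with 14 or 15 of them tested in each comparison. Its summed level overlapped between groups, at 1629 to 1885 normalized reads in UL and 1617 to 1997 in SL, against 1715 to 2025 in UH and 1501 to 1804 in SH. The only one called was miR-181a, a regulator of T-cell receptor sensitivity, which was higher in SL vs. UL at a log2 fold change of 1.02 (SE 0.45, adjusted p = 0.702) and lower in SH vs. SL at -1.10 (SE 0.47, adjusted p = 0.666). Its interaction, also a call, was -1.49 (SE 0.67, adjusted p = 0.847). In each of these, 1 of 15 listed miRNAs was called, beside 2.34% of all miRNAs in SL vs. UL, 5.47% in SH vs. SL and 5.04% in the interaction. These comparisons share the SL libraries. MiR-142-3p, which is on this list, had log2 fold changes of 0.16 in UH vs. UL, 0.07 in SH vs. SL, 0.14 in SH vs. UH and 0.23 in SL vs. UL, each with a 95% interval across 0.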

How the data were processed

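Small RNA libraries of plasma EVs from 12 samples were used. The authors added UMIs during library preparation, used Cutadapt to trim and collapse reads and Bowtie2 2.2.2 for mapping (build UMD3.1), annotated perfect matches with miRBase and tested with edgeR after TMM. The values the authors deposited are a score: reads per 1000000 mapped, truncated to integers and not scaled by TMM. Each value was a whole multiple of a library step (4.48 to 7.93) cut down, so reads were obtained by dividing and rounding up (100% of values). The number of unused columns was 0.

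The deposited values are a cut score, and no negative binomial test was run on the reads obtained from them. TMM was coded from its description. MiRNAs with at least 1 read in 2 of 3 libraries of a group were tested. For the 2 groups compared, log2(normalized reads + 1) was fitted with limma 3.58.1 (R 4.3.3, lmFit and eBayes with a trend, two-sided). On this scale, fold changes of rare miRNAs are understated. S vs. U and the interaction used all 4 groups. Ratios were tested by exact permutation. Tables and plots were made in Python 3.11.15 (scipy 1.17.1, pandas 2.3.3, numpy 2.4.6, matplotlib 3.10.9).

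Groups came from the sample labels. The pairing of U and S libraries comes from the shared number in the library names, as each heifer was sampled in both cycles, and no label states it. Deviations from group means over 238 miRNAs correlated at 0.10, 0.06 and -0.05 for L1 to L3 and at 0.05, 0.21 and 0.13 for H1 to H3. Between libraries of different numbers they ranged from -0.24 to 0.15. Replicates are separate heifers.

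The members, the lists and the tests were chosen with earlier results of these data known. The text names the 7 members, miR-142-3p, called miRNAs of the leukocyte list and, for each member with a mean of at least 50 reads, the 3 miRNAs of highest r. Other size factors, filters, a pseudocount of 2, the heifer block, limma without a trend, a fit of all 4 groups, other ratios and leaving out each library were tried.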

Additional observations from a re-analysis of the deposited data

How the results depend on the processing

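Of 356 values of members under other settings, 345 kept their direction and their side of the call, 1 became a call (miR-150 in SH vs. SL, above) and 10 changed sign. Much of this was fixed in advance. The filters, the block, the fit without a trend and that of all 4 groups leave a member's log2 fold change unchanged. Each was under 1 in either direction in the main fit, so only other size factors and the pseudocount could change a sign or call. Library sizes from mapped reads gave log2 fold changes of 0.029 for miR-150 in UH vs. UL, -0.044 for miR-223 and -0.0012 for miR-146b in SH vs. UH, -0.020 for miR-155 in SL vs. UL, and -0.052 for miR-155 and -0.047 for miR-146b in S vs. U. Known miRNA reads as library size gave -0.13 and -0.028 for miR-223 in SH vs. SL and SH vs. UH and -0.022 for miR-155 in S vs. U, and median-of-ratios factors gave 0.064 for miR-155 in SH vs. UH. These scalings moved the median of all miRNAs by 0.13 in UH vs. UL (mapped reads) and by 0.15 (mapped reads) and -0.14 (known reads) in SH vs. SL. With miR-342 alone over miR-223, the ratio's interaction was 0.15. The cause of these shifts was not tested.

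The number of called members was 0 in every other setting but 1 in SH vs. SL with known reads as library size and without SH2, and 1 in the interaction without SH2. Calls over all miRNAs were 10 without a filter in UH vs. UL. With at least 10 reads, which leaves fewer miRNAs, they were 2 in UH vs. UL, 5 in SH vs. SL, 7 in SH vs. UH, 0 in SL vs. UL and 4 in both S vs. U and the interaction. Mapped reads gave 7 in SH vs. SL and 6 in S vs. U, and a pseudocount of 2 gave 3 in SL vs. UL and 4 in S vs. U. A fit of all 4 groups gave 18 in SH vs. SL and 10 in SL vs. UL. The heifer block gave 3 in SL vs. UL. The replicate block pairs heifers between cycles and only numbers between H and L. It leaves the log2 fold changes unchanged (0.59 for miR-150 and 0.52 for miR-142-5p in SL vs. UL), so it could call no member. In SL vs. UL it moved the SE from 0.22 to 0.15 for miR-150 and from 0.20 to 0.19 for miR-142-5p.

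When 1 library was left out at a time, there were 5 to 10 calls in UH vs. UL, 8 to 34 in SH vs. SL, 6 to 24 in SH vs. UH, 7 to 15 in SL vs. UL, 5 to 16 in S vs. U and 7 to 21 in the interaction, with the highest numbers of SH vs. SL, SH vs. UH and the interaction found without SH2. The log2 ratio difference ranged from -0.64 to 0.085 in SH vs. UH, from -0.51 to 0.00030 in SL vs. UL and from -0.47 to 0.33 in the interaction, so that its sign there rests on single libraries. It kept its sign in UH vs. UL (-0.997 to -0.32), SH vs. SL (-1.13 to -0.40) and S vs. U (-0.41 to -0.042). Of 336 member values, 278 were unchanged in call and sign, 2 became calls and 56 changed sign, 29 of them for the rare miR-146a and miR-146b. Those members whose sign changed in these fits had the ranges that follow. In UH vs. UL the log2 fold changes ranged from -0.48 to 0.058 for miR-150, from -0.021 to 0.28 for miR-342 and from -0.84 to 0.47 for miR-146a. In SH vs. SL the log2 fold changes ranged from -0.13 to 0.25 for miR-223, from -0.19 to 0.40 for miR-146a and from -1.62 to 0.58 for miR-146b. In SH vs. UH the log2 fold changes ranged from -0.61 to 0.16 for miR-150, from -0.32 to 0.085 for miR-342, from -0.23 to 0.22 for miR-223, from -0.18 to 0.56 for miR-142-5p, from -0.22 to 0.20 for miR-155, from -0.42 to 0.89 for miR-146a and from -1.04 to 1.17 for miR-146b. In SL vs. UL the log2 fold changes ranged from -0.077 to 0.16 for miR-155, from -0.54 to 0.73 for miR-146a and from -0.69 to 0.48 for miR-146b. In S vs. U the log2 fold changes ranged from -0.0095 to 0.37 for miR-150, from -0.088 to 0.12 for miR-155, from -0.26 to 0.57 for miR-146a and from -0.55 to 0.55 for miR-146b. In the interaction the log2 fold changes ranged from -0.70 to 0.043 for miR-142-5p, from -0.27 to 0.15 for miR-155, from -0.32 to 0.996 for miR-146a and from -0.98 to 1.22 for miR-146b. Of 42 member values, 18 kept their sign in all of these fits, and 13 of the 18 moved by over 1.5 times. These had the ranges 0.23 to 0.98 for miR-142-5p and -0.93 to -0.23 for miR-146b in UH vs. UL, -0.53 to -0.14 for miR-342, 0.055 to 0.45 for miR-142-5p and -0.72 to -0.30 for miR-155 in SH vs. SL, and 0.21 to 0.50 for miR-342 and 0.45 to 0.98 for miR-223 in SL vs. UL. In S vs. U they were 0.031 to 0.24 for miR-342, 0.22 to 0.51 for miR-223 and 0.17 to 0.54 for miR-142-5p, and in the interaction -1.21 to -0.44 for miR-150, -0.71 to -0.30 for miR-342 and -0.95 to -0.42 for miR-223.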
